A study of Homo sapiens with 12 samples.

Results

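The SLC25 genes encode the mitochondrial carriers, the largest group of human transport proteins in the inner mitochondrial membrane. Members were taken by name alone, as every gene called SLC25A followed by a number in the deposited analysis table. This rule found 47 of the 36963 genes of the deposited gene table. A filter on low counts left 14804 genes for testing, 38 of the 47 members among them.

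A typical carrier is made in the cytosol from a nuclear gene and is then inserted into the inner membrane, where it exchanges a small molecule between cytosol and matrix. Substrates include ADP and ATP, phosphate, the acids of the citric acid cycle, amino acids, folate, NAD, glutathione and iron. YTHDF2 is a cytosolic protein that binds mRNA carrying N6-methyladenosine (m6A), a methylated adenosine inside mRNA, and is known to bring bound mRNA to the machinery that shortens the poly(A) tail.

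All 12 libraries came from U251-MG, an established human astrocytoma line that the labels call an astrocyte. All cells were kept in medium with 2% serum, and the treated cells also received 100 µM manganese chloride, with no length of exposure stated in the labels. RNA was sequenced from the cleared lysate (input, purified for poly(A) RNA) and from an immunoprecipitation (IP) of the lysate with an antibody to YTHDF2, and no control-antibody IP is named in the labels. The 4 groups were control input, manganese input, control IP and manganese IP, with 3 libraries each. The labels do not say whether replicates were separate cultures, so a p-value here reflects the spread among libraries and no more. In bulk RNA of this kind, fewer cells of a type and less RNA per cell cannot be told apart.

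Libraries held 23898352 to 35411833 fragments and 16683984 to 28425552 estimated gene counts, of which the SLC25 genes took 0.0705% to 0.169%. Counts assigned to PCGF6 alone made up 34.3% to 41.8% of each library. In control IP 3, 56.9% of fragments were aligned, the lowest share, and results that rest on that library are given with and without it. Of 10 astrocyte and glioma markers, 7 reached 1 TPM (transcripts per total of the library, adjusted for transcript length), while AQP4, the astrocyte water channel, had no count and ALDH1L1 and SLC1A2 stayed below 1 TPM. Their summed level was 1697 to 1841 TPM in the control input, 1318 to 1408 in the manganese input, 1414 to 1782 in the control IP and 1081 to 1351 in the manganese IP. VIM held most of that sum, and single markers went apart between control and manganese input, with mean TPM of 429 and 37.8 for GFAP, 23.4 and 5.15 for S100B, 51.5 and 141 for NES, and 28.6 and 74.0 for GJA1. The part of these markers in the results was not tested. Markers of neurons, microglia and epithelium summed to at most 7.62, 0.898 and 3.44 TPM in a library. MAP2K4 mRNA, the kinase mRNA named in the study's title, stood at a log2 IP-to-input ratio of 1.77 ± 0.18 (adjusted p = 1.5e-05) in control cells and of 0.29 ± 0.18 (adjusted p = 0.243) in manganese-treated cells by edgeR's quasi-likelihood test.

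Per length, the carriers of ADP, ATP and phosphate led the family. In the control input SLC25A5, the main ADP/ATP exchanger of dividing cells, stood at 258 ± 14.9 TPM (SD, n = 3). SLC25A3, the phosphate carrier, followed at 161 ± 9.70 TPM, and SLC25A6, a further ADP/ATP exchanger, at 51.8 ± 10.8 TPM. The libraries of these 3 genes did not overlap in level. The next level was that of SLC25A44, the carrier of branched-chain amino acids, at 23.4 ± 9.53 TPM, with libraries that overlapped those of SLC25A46. From SLC25A1, the citrate carrier, at 12.6 ± 1.88 TPM down to the lowest member, every gene's libraries overlapped those of the next gene in the order. In all, 2 members were above 100 TPM in the control input, 10 were between 10 and 100 TPM, 22 between 1 and 10 TPM, 7 above 0 and up to 1 TPM, and 6 at 0.

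**Figure D1:**
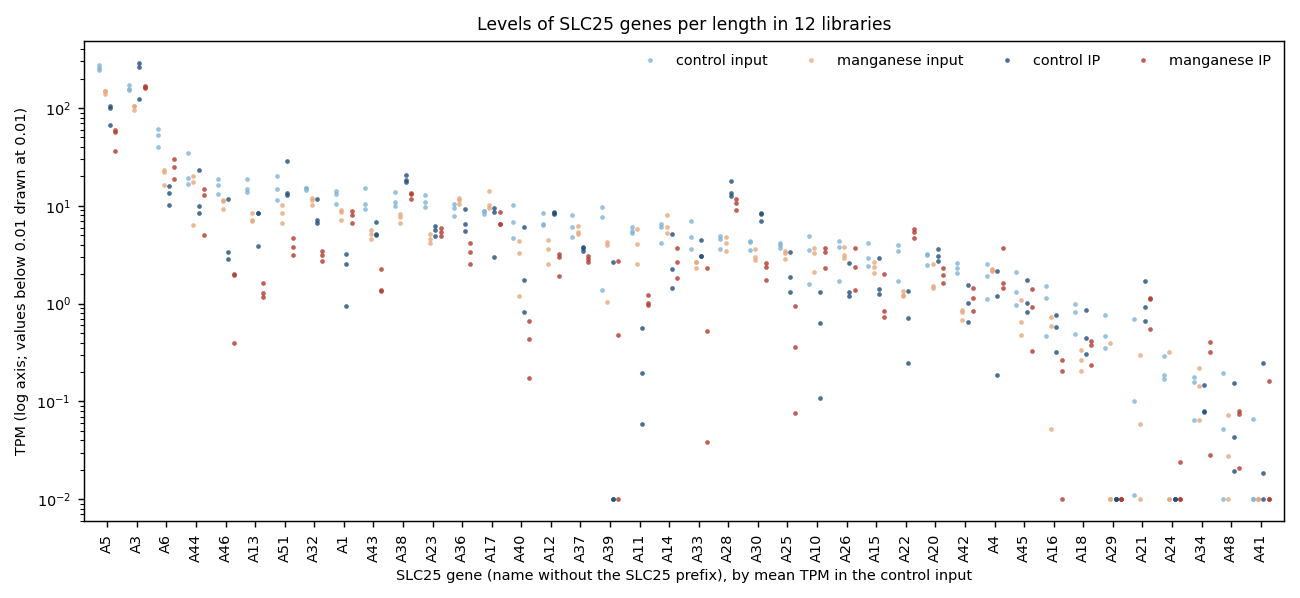
TPM (log axis) of SLC25 genes with a control input mean above 0, in order of that mean, with 1 point per library and 1 colour per group. SLC25A5 and SLC25A3 stand above 100 TPM in the control input, while most members lie between 1 and 10 TPM and SLC25A39 has libraries at 0.

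The make-up of the family differed between input and IP. Summed over the 47 members, TPM was 705.2 ± 32.1 (SD, n = 3) in the control input and 426.7 ± 23.1 in the manganese input. The sum was 494.2 ± 81.5 TPM in the control IP and 347.5 ± 12.4 TPM in the manganese IP. TPM is a share of a fixed total, and over all tested genes the median difference between manganese and control input was -0.28 on the log2(TPM + 1) scale, so the sums are descriptions without a test. SLC25A5 made up 36.6% of the sum in the control input and 34.3% in the manganese input, against 18.3% in the control IP and 14.7% in the manganese IP. SLC25A3 made up 22.9% and 23.7% in the inputs of control and manganese-treated cells and 44.5% and 47.4% in the IPs. SLC25A5 was thus the leading member of the inputs and SLC25A3 that of the IPs. The length that counts and TPM imply for SLC25A3, relative to other genes, was 0.70 and 0.65 in the control and manganese inputs. It was 0.48 and 0.40 in the control and manganese IPs, and this length enters the TPM shares. From counts, the IP-to-input ratios of SLC25A3 did not pass in edgeR's test, as given below. In control IP 3 the share of SLC25A3 was 31.1%, against 53.5% and 48.9% in the other 2 control IP libraries.

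**Figure D2:**
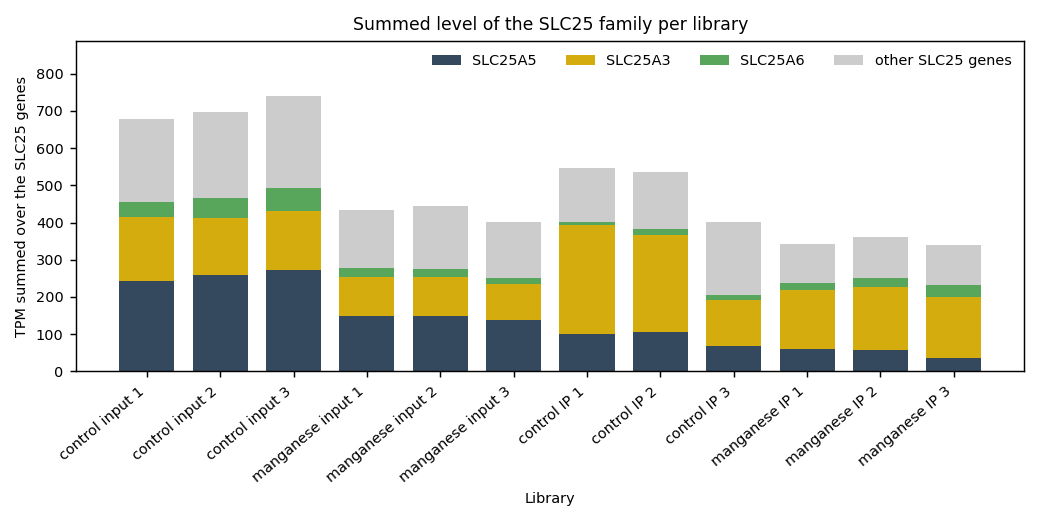
Bars give the TPM summed over the SLC25 genes in each of the 12 libraries, split into SLC25A5, SLC25A3, SLC25A6 and all other members. SLC25A5 holds the largest part of each input and SLC25A3 the largest part of each IP among the 3 named genes, and the 3 manganese inputs (401 to 446 TPM) lie below the 3 control inputs (678 to 741 TPM).

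Tests used the estimated counts of the whole table in 1 edgeR quasi-likelihood fit, with Benjamini-Hochberg adjustment over the 14804 genes and a threshold of 0.05. Differences are on the log2 scale with their SE. In control cells the IP-to-input ratio was called in 10 of 38 members, 4 higher and 6 lower in the IP, beside 31.3% of all genes tested (17.2% higher and 14.2% lower). The median log2 ratio was -0.29 over the members and 0.04 over all genes. In manganese-treated cells 15 members were called, 4 higher and 11 lower in the IP, beside 32.4% of all genes (14.8% higher and 17.6% lower), with medians of -0.17 and -0.03. The IP comparison in control cells gave 10 lower members when control IP 3 was left out, beside 17.9% of all genes, and that in manganese-treated cells gave 7 when manganese input 2 was left out, beside 12.3%.

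Manganese itself was followed in each fraction. In the input 5 members were called, 1 higher and 4 lower with manganese, beside 15% of all genes (11.3% higher and 3.63% lower). In the IP 15 members were called, 6 higher and 9 lower, beside 42.9% of all genes (20.4% higher and 22.5% lower). The change of the IP-to-input ratio with manganese was called in 10 members, 5 upward and 5 downward, beside 17.1% of all genes (6.94% upward and 10.2% downward). The last 3 comparisons share libraries with each other and with the IP-to-input ratios, so they are not independent of one another. At least 1 of the 5 comparisons called 22 members, and 16 tested members were called in none.

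These splits depend on how libraries are scaled. Scaling by total counts in place of TMM moved the median log2 difference of all genes between manganese and control input from -0.04 to -0.49. The members then gave 0 higher and 8 lower calls in that comparison, beside 7.57% and 17.7% of all genes, and 3 higher and 11 lower calls for the control IP against its input, beside 11.3% and 20.5%. Under total counts the manganese IP against the control IP gave 5 higher and 12 lower members, beside 16.4% and 29.3% of all genes, and the change of the ratio gave 5 upward and 2 downward, beside 8.52% and 6.82%. On log2(TPM + 1) with limma the calls were 0 higher and 9 lower in the manganese input, 4 and 13 in the control IP against input, 5 and 12 between the IPs, and 5 upward and 2 downward for the change. The shares of all genes with limma were 7.27% higher and 16.5% lower, 10.5% and 23.1%, 14.9% and 27.4%, and 6.71% and 4.53% in the same order. Leaving out any 1 control input library or manganese input 3 gave 2 lower calls in the manganese input, and leaving out control IP 3 gave 2 higher calls there. Lower calls over all genes in that comparison then moved too, to 1.84% to 2.04% without a control input library and 6.83% without control IP 3. In a run that is not among these, without manganese IP 3, they came to 5.35%. The share without manganese input 3 is not given here. Leaving out control IP 3 gave 8 upward changes of the ratio, and downward changes numbered 2 or 3 without control input 2 or 3, any manganese input library, manganese IP 2 or manganese IP 3. Over all genes, changes of the ratio were called in 4.33% upward and 5.71% downward without control input 2, in 4.38% and 5.42% without control input 3, and in 4.36% and 4.92% without manganese input 3. Downward changes came to 5.42% of all genes without manganese input 1, 5.4% without manganese input 2, 6.24% without manganese IP 3 and 14.6% without control IP 3. For upward changes and higher input calls without control IP 3, no share of all genes is given here. The same holds for the change without manganese IP 2, so these member counts are not read as traits of the family.

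**Figure D3:**
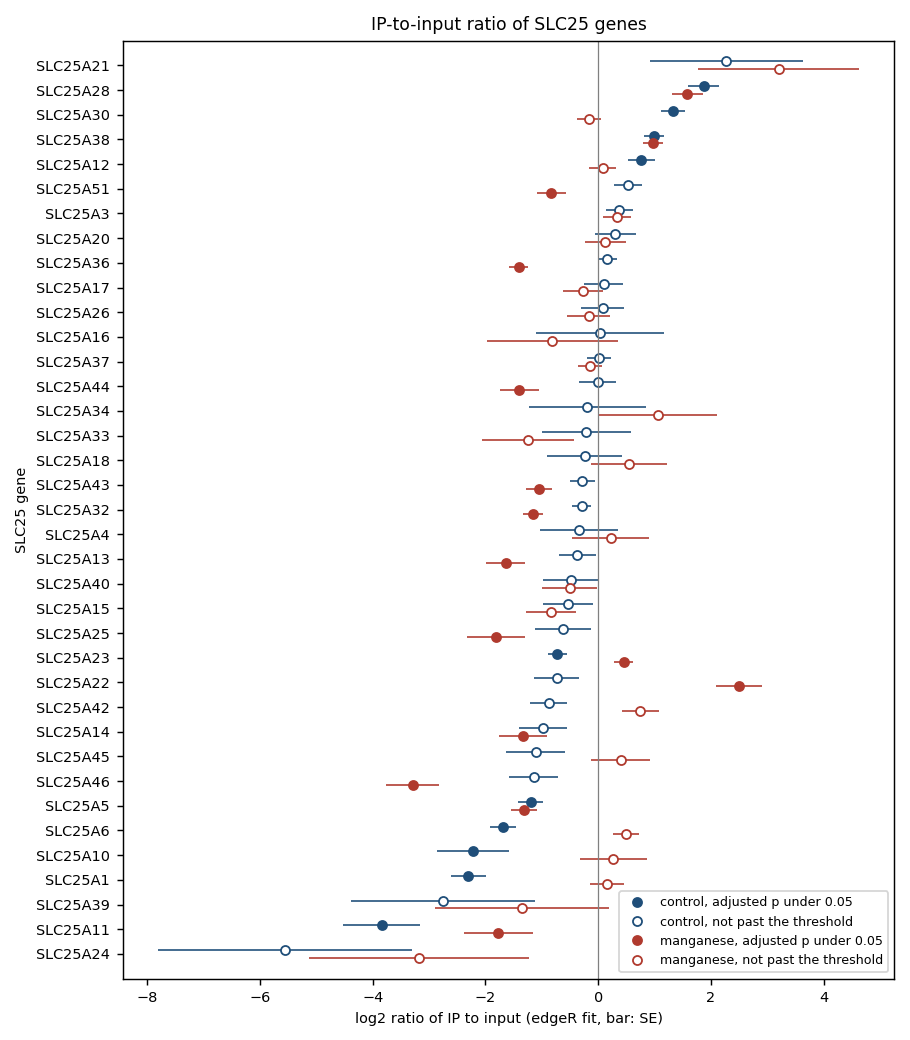
Points give the log2 IP-to-input ratio of tested members with its SE from edgeR's fit, in control (blue) and manganese-treated cells (red), filled where the adjusted p was under 0.05. SLC25A28 and SLC25A38 lie above 0 and SLC25A5 and SLC25A11 below 0 in both treatments, while SLC25A22 is filled above 0 in manganese-treated cells alone; whether any gene's ratios differ is given by the test of the change in the text.

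Among the ADP/ATP exchangers, SLC25A5 mRNA was depleted from the IP in both treatments and SLC25A6 mRNA in control cells. SLC25A5 stood at 381, 394 and 396 CPM (a library-scaled count, with TMM factors) in control input 1 to 3 and at 205, 197 and 107 CPM in control IP 1 to 3. With manganese it stood at 311, 314 and 301 CPM in the inputs and 140.4, 137 and 93.5 CPM in the IPs. Every IP library was below every input library of its treatment. The log2 ratio was -1.2 ± 0.23 (adjusted p = 0.00126) in control cells and -1.32 ± 0.23 (adjusted p = 0.000715) in manganese-treated cells by edgeR's quasi-likelihood test, and the change between them was -0.12 ± 0.32 (adjusted p = 0.852). The difference between manganese and control IP, at -0.46 ± 0.23 (adjusted p = 0.122), did not pass, and without control IP 3 it was -0.71 (adjusted p = 0.00141). It also passed with total counts scaling, limma on log2(TPM + 1) and a length correction (-0.83 to -0.68, adjusted p 0.00809 to 0.0207). The input difference was -0.34 ± 0.23 (adjusted p = 0.416), with every manganese input below every control input. That difference passed with total counts scaling, limma and a fit of the inputs alone (-0.82 to -0.36, adjusted p 0.00508 to 0.0171). SLC25A6 stood at 109, 140.2 and 154 CPM in the control inputs and 35.9, 51.4 and 37.6 CPM in the control IPs. Its manganese inputs held 83.6, 80.6 and 60.7 CPM and its manganese IPs 75.9, 105 and 134 CPM. The control IPs were thus the lowest group, the control inputs lay above the manganese inputs, and the manganese IPs overlapped the manganese inputs. SLC25A6 fell by 1.69 ± 0.24 on the log2 scale from input to IP in control cells (edgeR adjusted p = 0.000132), and in manganese-treated cells its ratio was 0.48 ± 0.23 (adjusted p = 0.131). Its ratio changed by 2.17 ± 0.33 (adjusted p = 0.00163) with manganese, and its IP level rose by 1.33 ± 0.23 (adjusted p = 0.000487). In the input it fell by 0.84 ± 0.23 with manganese (edgeR adjusted p = 0.0243), a call lost without control input 2, control input 3 or manganese input 3 (adjusted p 0.0798 to 0.107). SLC25A4, the ADP/ATP exchanger of heart and muscle, had 2.18, 4.21 and 3.00 CPM in the control inputs, 4.69, 2.38 and 0.313 in the control IPs, 5.08, 4.98 and 4.93 in the manganese inputs and 4.04, 9.58 and 3.89 in the manganese IPs. It overlapped between input and IP in both treatments and was called nowhere, though the comparison of the IPs passed without control IP 1 (log2 of 2.11, adjusted p = 0.0387).

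SLC25A23, SLC25A24 and SLC25A25 are calcium-regulated carriers of ATP-magnesium and phosphate. SLC25A23 stood at 46.0, 49.1 and 55.6 CPM in the control inputs and 30.2, 34.0 and 27.0 CPM in the control IPs. With manganese it stood at 30.9, 28.7 and 26.8 CPM in the inputs and 37.5, 42.6 and 37.9 CPM in the IPs. Every control IP lay below every control input, and every manganese IP above every manganese input. By edgeR its ratio was -0.72 ± 0.16 (adjusted p = 0.00397) in control and 0.45 ± 0.16 (adjusted p = 0.0491) in manganese-treated cells, and the change was 1.17 ± 0.23 (adjusted p = 0.00505). Its input level fell by 0.80 ± 0.16 with manganese (adjusted p = 0.00378). The higher ratio in manganese-treated cells was lost on leaving out any 1 library other than control IP 1 and control IP 3 (adjusted p 0.054 to 0.133), and with total counts scaling, no filter or limma on log2(TPM + 1) (adjusted p 0.2 to 0.451). SLC25A25 had 3.38, 4.16 and 3.87 CPM in the manganese inputs and 1.03, 1.58 and 0.632 CPM in the manganese IPs, beside 2.55, 5.15 and 3.66 CPM and 2.07, 3.07 and 2.24 CPM in the control inputs and IPs. Its manganese IP libraries were the lowest of the 12, and its ratio there was -1.81 ± 0.52 (adjusted p = 0.0163) by edgeR, lost without manganese input 2, manganese IP 1 or manganese IP 3 (adjusted p 0.0523 to 0.0659) and with no filter (adjusted p = 0.0713). The counting's strand setting is not given in the sources used here, and the antisense gene SLC25A25-AS1 held 537 counts beside the 820 of SLC25A25, so reads of the pair cannot be told apart. SLC25A24 was at 0 in 5 libraries and was called in no comparison.

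SLC25A36, a carrier of pyrimidine nucleotides, was the single member called higher with manganese in the input, and it was called lower in the IP. It stood at 40.2, 44.9 and 47.4 CPM in the control inputs and 88.6, 88.2 and 86.1 CPM in the manganese inputs. The IPs held 51.3, 42.6 and 54.0 CPM in control and 38.6, 33.4 and 27.0 CPM in manganese-treated cells. The manganese inputs were the highest 3 libraries and the manganese IPs the lowest 3. By edgeR its input level rose by 0.99 ± 0.17 (adjusted p = 0.00113), and its IP level fell by 0.58 ± 0.17 (adjusted p = 0.0141), which was lost without manganese IP 3 (adjusted p = 0.0745), with a length correction (adjusted p = 0.106) and in a fit of the IPs alone (adjusted p = 0.0996). The IP-to-input ratio was 0.16 ± 0.17 (adjusted p = 0.536) in control and -1.41 ± 0.17 (adjusted p = 5.79e-05) in manganese-treated cells, a change of -1.57 ± 0.24 (adjusted p = 0.00165). The rise in the input was not seen in TPM, which is also a share of a fixed total. TPM stood at 7.85, 9.60 and 10.5 in the control inputs and 12, 11.4 and 10.4 in the manganese inputs, which overlap, and limma on log2(TPM + 1) gave 0.26 (adjusted p = 0.408). Total counts scaling, which has no length term, also lost the call, at 0.54 (adjusted p = 0.0563), and the length correction kept it. The length that counts and TPM imply for SLC25A36, relative to other genes, was 2.28 in the control input and 2.63 in the manganese input.

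SLC25A43, listed here with the nucleotide carriers, was lower with manganese in both fractions. Its control inputs held 31.7, 23.9 and 23.0 CPM and its manganese inputs 16.7, 12.6 and 13.3 CPM. The IPs held 24.7, 22.8 and 17.0 CPM in control and 7.45, 6.71 and 6.37 CPM in manganese-treated cells. Neither fraction overlapped between treatments. It fell by 0.88 ± 0.23 in the input (edgeR adjusted p = 0.0162), lost without control input 1 (adjusted p = 0.083), and by 1.65 ± 0.23 in the IP (adjusted p = 8.53e-05). Its ratio was -1.05 ± 0.23 (adjusted p = 0.00332) in manganese-treated cells and -0.29 ± 0.22 (adjusted p = 0.378) in control cells, and the change of -0.77 ± 0.32 (adjusted p = 0.118) passed only without control IP 3 (-0.92, adjusted p = 0.0344) among the single libraries left out. The control ratio passed with total counts scaling (-0.61, adjusted p = 0.0352) and with limma on log2(TPM + 1) (-0.90, adjusted p = 0.01). Of the 10 tested nucleotide carriers, 3 were lower in the control IP than in its input and none higher, beside 14.2% and 17.2% of all genes, and 4 were lower and 1 higher in the manganese IP, beside 17.6% and 14.8%.

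The carriers of phosphate and carboxylic acids held the 3 lowest called ratios in control cells. Of 6 tested, SLC25A1, SLC25A10 and SLC25A11 were lower in the control IP than in the input, none was higher, and the same 3 genes were higher in the manganese IP than in the control IP. Of all genes, 14.2% were lower in the control IP than in its input and 20.4% were higher in the manganese IP than in the control IP. SLC25A1 exports citrate, SLC25A10 carries malate and succinate against phosphate, and SLC25A11 exchanges oxoglutarate with malate. The median log2 difference of the 6 between the IPs was 1.98.

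SLC25A1 stood at 22.1, 28.8 and 25.7 CPM in the control inputs, 2.58, 6.23 and 6.73 CPM in the control IPs, 24.0, 25.2 and 20.7 CPM in the manganese inputs and 20.9, 26.1 and 30.7 CPM in the manganese IPs. The control IPs were far below the other 9 libraries, which overlapped. By edgeR the ratio was -2.30 ± 0.32 (adjusted p = 0.00011) in control and 0.15 ± 0.30 (adjusted p = 0.748) in manganese-treated cells, and the change of 2.46 ± 0.43 (adjusted p = 0.00293) passed. Its IP level rose with manganese by 2.32 ± 0.32 (adjusted p = 6.54e-05), or 1.52 with limma on log2(TPM + 1) (adjusted p = 0.00091), while the input gave -0.13 ± 0.30 (adjusted p = 0.867). SLC25A10 stood at 3.43, 4.96 and 7.13 CPM in the control inputs, 0.169, 1.34 and 1.83 CPM in the control IPs, 7.05, 8.28 and 3.91 CPM in the manganese inputs and 5.89, 8.81 and 8.45 CPM in the manganese IPs. Its control IPs were again the lowest 3 libraries. The ratio was -2.22 ± 0.64 (adjusted p = 0.0169) in control cells by edgeR, lost without control input 3 (adjusted p = 0.0671) and in a fit of the compared libraries alone (adjusted p = 0.0685), and the IP level rose by 2.80 ± 0.65 (adjusted p = 0.0035). With limma on log2(TPM + 1) these were -1.35 (adjusted p = 0.0116) and 1.34 (adjusted p = 0.0096). The change of its ratio, 2.49 ± 0.87 (adjusted p = 0.0664), did not pass, while it passed without control IP 3 (3.04, adjusted p = 0.0208), with DESeq2 (2.55, adjusted p = 0.02) and with no filter (2.50, adjusted p = 0.0335). SLC25A11 stood at 7.24, 10.1 and 9.85 CPM in the control inputs, 0.0845, 0.476 and 1.36 CPM in the control IPs, 9.73, 12.4 and 5.94 CPM in the manganese inputs and 3.21, 2.40 and 2.58 CPM in the manganese IPs. All IP libraries lay below all input libraries, with the control IPs lowest.

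SLC25A11 had the lowest called ratio of the family in control cells, -3.84 ± 0.68 (adjusted p = 0.000748) by edgeR, or -5.00 without control IP 3 (adjusted p = 3.51e-05) and -2.40 with limma on log2(TPM + 1) (adjusted p = 5.64e-05). In manganese-treated cells its ratio was -1.78 ± 0.61 (adjusted p = 0.0397), which was lost without control input 2 or 3 or any 1 of the manganese libraries (adjusted p 0.0572 to 0.169), and with a length correction, a filter of 1 CPM or scaling without PCGF6 (adjusted p 0.0552 to 0.0702). Its IP level rose by 2.11 ± 0.65 (adjusted p = 0.0181) with manganese. That value was 1.51 without control IP 1 (adjusted p = 0.041), 3.26 without control IP 3 (adjusted p = 0.000658) and 0.72 with limma on log2(TPM + 1) (adjusted p = 0.0382), and the call was lost without control IP 2 or manganese IP 1 (adjusted p 0.0613 to 0.0624), with total counts scaling (adjusted p = 0.0542) and in a fit of the IPs alone (adjusted p = 0.148). The change of the ratio of SLC25A11, 2.07 ± 0.87 (adjusted p = 0.122), passed without control IP 3 (3.22, adjusted p = 0.00628).

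SLC25A3 was high in the IP but varied there. Its control inputs held 262, 224 and 225 CPM and its control IPs 408, 349 and 166 CPM. Its manganese inputs held 198, 202 and 186 CPM and its manganese IPs 248, 237 and 254 CPM. Control IP 3 was the lowest of the 12 libraries and the other control IPs were the highest, with all other libraries between them. The ratio was 0.38 ± 0.25 (adjusted p = 0.283) in control and 0.33 ± 0.25 (adjusted p = 0.339) in manganese-treated cells by edgeR, and neither passed. Without control IP 3 the ratios were 0.67 (adjusted p = 0.000313) and 0.33 (adjusted p = 0.021), and the manganese IP was lower than the control IP by a log2 of -0.62 (adjusted p = 0.000488).

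Among amino acid carriers, SLC25A22, a mitochondrial glutamate carrier, changed most. It stood at 5.36, 5.02 and 6.25 CPM in the control inputs and 6.16, 5.58 and 4.30 CPM in the manganese inputs. The control IPs held 1.27, 3.33 and 5.43 CPM and the manganese IPs 23.6, 34.7 and 32.4 CPM. The manganese IPs stood far above the other 9 libraries, and the inputs overlapped. By edgeR the ratio was -0.74 ± 0.40 (adjusted p = 0.194) in control and 2.50 ± 0.41 (adjusted p = 0.000522) in manganese-treated cells, and the change was 3.24 ± 0.57 (adjusted p = 0.00317). The IP level rose by 3.18 ± 0.43 (adjusted p = 6.09e-05) with manganese, the largest rise in the family, while the input gave -0.05 ± 0.40 (adjusted p = 0.965). On log2(TPM + 1), with limma, the same rise was 1.87 (adjusted p = 0.000338) and the ratio in manganese-treated cells 1.47 (adjusted p = 0.00239). The ratio in control cells passed with limma, at -1.19 (adjusted p = 0.00721), and without control IP 3, at -1.28 (adjusted p = 0.0149).

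The aspartate-glutamate carriers of the malate-aspartate shuttle, SLC25A12 and SLC25A13, were both lower in the IP with manganese. SLC25A12 stood at 18.9, 14.1 and 16.3 CPM in the control inputs, 31.9, 28.5 and 23.2 CPM in the control IPs, 12.8, 11.9 and 8.07 CPM in the manganese inputs and 9.35, 12.3 and 13.0 CPM in the manganese IPs. The control IPs were the highest 3 libraries. Its IP level fell by 1.27 ± 0.25 with manganese by edgeR (adjusted p = 0.000975). The input difference was -0.59 ± 0.24 (adjusted p = 0.145), with every manganese input below every control input. That difference passed with total counts scaling, DESeq2 and limma on log2(TPM + 1) (-1.03 to -0.66, adjusted p 0.00637 to 0.0484). Its ratio in control cells, 0.76 ± 0.24 (adjusted p = 0.0284), was lost without control input 2, control input 3, control IP 1 or control IP 2 (adjusted p 0.072 to 0.125), and with total counts scaling, no filter, limma on log2(TPM + 1) or a fit of the compared libraries alone (adjusted p 0.0723 to 0.477). SLC25A13 stood at 15.9, 18.6 and 14.3 CPM in the control inputs, 9.12, 11.1 and 17.5 CPM in the control IPs, 11.2, 11.8 and 13.0 CPM in the manganese inputs and 2.14, 5.17 and 4.25 CPM in the manganese IPs. The manganese IPs were the lowest 3 libraries. Its IP level fell by 1.71 ± 0.35 by edgeR (adjusted p = 0.00135), and its ratio was -1.64 ± 0.34 (adjusted p = 0.00266) in manganese-treated cells and -0.37 ± 0.33 (adjusted p = 0.452) in control cells. The control ratio passed with limma on log2(TPM + 1), at -1.14 (adjusted p = 0.00516). In the input SLC25A13 gave -0.44 ± 0.33 by edgeR (adjusted p = 0.492), with every manganese input below every control input. That input difference passed with limma, at -0.97 (adjusted p = 0.0191). The change of the ratio was -0.69 ± 0.34 (adjusted p = 0.194) for SLC25A12 and -1.27 ± 0.47 (adjusted p = 0.084) for SLC25A13, and neither passed.

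SLC25A38, a glycine carrier needed for haem synthesis, was higher in the IP in both treatments. Its control inputs held 28.2, 29.5 and 35.8 CPM and its control IPs 66.9, 69.6 and 49.4 CPM, beside 28.3, 31.0 and 25.7 CPM and 54.6, 50.9 and 61.6 CPM with manganese. No IP library overlapped an input library. The ratios were 0.99 ± 0.18 (adjusted p = 0.00096) and 0.97 ± 0.18 (adjusted p = 0.00118) by edgeR, and the change was -0.02 ± 0.25 (adjusted p = 0.98). SLC25A44 stood at 20.2, 22.7 and 18.8 CPM in the control inputs, 9.97, 17.8 and 33.5 CPM in the control IPs, 16.8, 16.5 and 19.5 CPM in the manganese inputs and 6.47, 6.47 and 7.09 CPM in the manganese IPs. Its control IPs were widely spread around the inputs, and its manganese IPs were the lowest 3 libraries. It fell by 1.61 ± 0.34 in the IP with manganese (edgeR adjusted p = 0.00196), and its ratio in manganese-treated cells was -1.40 ± 0.34 (adjusted p = 0.00683), lost with a length correction (adjusted p = 0.0719). Per length the calls on SLC25A44 were not seen: TPM was 8.36, 10.0 and 23.5 in the control IPs and 5.01, 12.8 and 14.7 in the manganese IPs, and limma on log2(TPM + 1) gave -0.32 (adjusted p = 0.648) between the IPs and -0.38 (adjusted p = 0.622) for the ratio. Its change of ratio, -1.39 ± 0.47 (adjusted p = 0.0618), passed without control IP 1 (-1.72, adjusted p = 0.0103).

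**Figure D4:**
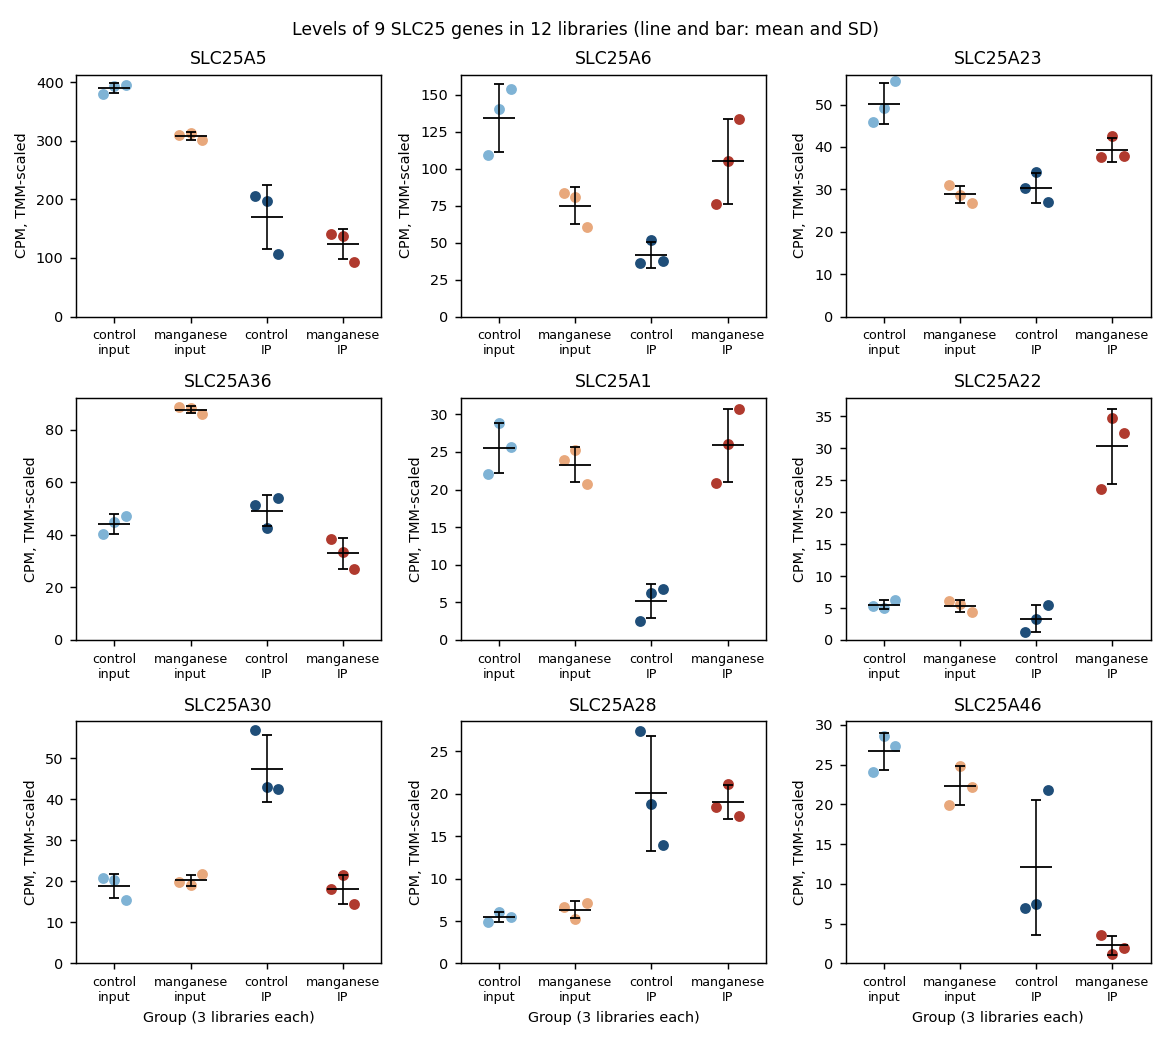
CPM of 9 SLC25 genes in each of the 12 libraries, with a line and bar for the mean and SD of each group of 3. SLC25A1 and SLC25A6 are lowest in the control IP, SLC25A22 is highest in the manganese IP, SLC25A30 is highest in the control IP, and SLC25A46 has 1 control IP library (21.8 CPM) far above the other 2.

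SLC25A30 and SLC25A14 are relatives of the uncoupling proteins. SLC25A30 stood at 20.8, 20.3 and 15.6 CPM in the control inputs and 19.9, 19.1 and 21.7 CPM in the manganese inputs. The control IPs held 56.9, 43.0 and 42.6 CPM and the manganese IPs 18.1, 21.6 and 14.6 CPM. The control IPs stood above the other 9 libraries, which overlapped. By edgeR the ratio was 1.33 ± 0.21 (adjusted p = 0.000327) in control and -0.16 ± 0.21 (adjusted p = 0.603) in manganese-treated cells, and the change was -1.5 ± 0.29 (adjusted p = 0.00515). The IP level fell by 1.39 ± 0.21 with manganese (adjusted p = 0.000148), while the input gave 0.10 ± 0.21 (adjusted p = 0.85). SLC25A14 had 4.65, 5.53 and 6.28 CPM in the control inputs, 2.62, 4.37 and 1.31 CPM in the control IPs, 9.96, 7.91 and 8.94 CPM in the manganese inputs and 4.08, 2.68 and 3.89 CPM in the manganese IPs. Its IPs lay below its inputs in both treatments. Its ratio in manganese-treated cells was -1.33 ± 0.43 (adjusted p = 0.0297) by edgeR and was lost without any 1 of the 6 manganese libraries (adjusted p 0.053 to 0.106), with no filter (adjusted p = 0.0603) and with a length correction (adjusted p = 0.111). In control cells the ratio of SLC25A14, -0.99 ± 0.43 (adjusted p = 0.0997), passed without control IP 2 (-1.48, adjusted p = 0.0287).

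The iron carriers of the inner membrane, the mitoferrins, parted from each other. SLC25A28, the mitoferrin of most tissues, stood at 4.86, 6.09 and 5.50 CPM in the control inputs and 27.4, 18.8 and 14.0 CPM in the control IPs. With manganese it stood at 6.67, 5.26 and 7.15 CPM in the inputs and 18.5, 21.2 and 17.4 CPM in the IPs. Every IP library was above every input library. By edgeR the ratio was 1.87 ± 0.28 (adjusted p = 0.000205) in control and 1.58 ± 0.28 (adjusted p = 0.000746) in manganese-treated cells, the highest called ratio in control cells, and the change was -0.29 ± 0.38 (adjusted p = 0.668). SLC25A37, the mitoferrin of red cell precursors, held 25.8, 21.3 and 19.3 CPM in the control inputs, 26.4, 22.7 and 18.1 CPM in the control IPs, 21.8, 22.2 and 24.6 CPM in the manganese inputs and 20.6, 24.5 and 17.2 CPM in the manganese IPs. All of its groups overlapped, and no comparison was called, with a ratio of 0.02 ± 0.21 (adjusted p = 0.96) in control cells. On log2(TPM + 1), however, limma placed SLC25A37 lower in the IP in control cells, at -0.63 (adjusted p = 0.0273), and the 3 control IPs held 3.73, 3.45 and 3.82 TPM against 8.07, 4.80 and 6.12 TPM in the inputs. In manganese-treated cells limma gave -0.78 (adjusted p = 0.0102), with 2.67, 3.04 and 2.84 TPM in the IPs against 5.43, 6.24 and 5.20 TPM in the inputs. Neither mitoferrin was called between manganese and control in either fraction.

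SLC25A39, a carrier of glutathione and the human relative of a yeast protein named for manganese trafficking, could not be measured well. It stood at 2.13, 11.7 and 14.4 CPM in the control inputs, 8.13, 8.96 and 2.27 CPM in the manganese inputs, 0, 0 and 4.23 CPM in the control IPs and 6.42, 1.10 and 0 CPM in the manganese IPs. It was at 0 in 3 IP libraries, and its groups overlapped in every comparison. No comparison called it, with SEs of 1.51 to 2.17 on the log2 scale. Without control IP 3 both remaining control IPs are at 0, and edgeR then called it between control IP and input (adjusted p = 0.00515), between the IPs (adjusted p = 0.0159) and for the change (adjusted p = 0.0334).

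Carriers of cofactors moved in both directions. SLC25A32, which carries folate and FAD, stood at 36.2, 36.7 and 34.9 CPM in the control inputs, 33.5, 27.8 and 26.5 CPM in the control IPs, 41.6, 42.8 and 37.8 CPM in the manganese inputs and 15.4, 20.5 and 18.8 CPM in the manganese IPs. The manganese IPs were the lowest 3 libraries. By edgeR its ratio was -1.16 ± 0.17 (adjusted p = 0.000249) in manganese-treated cells, and its IP level fell by 0.69 ± 0.17 (adjusted p = 0.00581), lost in a fit of the IPs alone (adjusted p = 0.0628). Its ratio in control cells, -0.30 ± 0.17 (adjusted p = 0.219), did not pass. That ratio passed with total counts scaling (-0.621, adjusted p = 0.00924) and with limma on log2(TPM + 1) (-0.785, adjusted p = 0.0106). The change of its ratio, -0.86 ± 0.24 (adjusted p = 0.0272), was lost without control input 2 or 3, any 1 manganese input, control IP 1, manganese IP 1 or manganese IP 3 (adjusted p 0.0533 to 0.0946). It was also lost with total counts scaling, no filter, limma on log2(TPM + 1) and a length correction (adjusted p 0.0535 to 0.113). SLC25A51, the NAD carrier, stood at 24.2, 27.8 and 34.5 CPM in the control inputs, 35.7, 30.9 and 57.9 CPM in the control IPs, 25.3, 21.8 and 19.9 CPM in the manganese inputs and 14.8, 12.2 and 10.6 CPM in the manganese IPs. Again the manganese IPs were lowest. It fell by 1.72 ± 0.26 in the IP with manganese by edgeR (adjusted p = 0.000136). Its ratio in manganese-treated cells, -0.83 ± 0.25 (adjusted p = 0.0228), was lost without any 1 manganese input, manganese IP 2 or manganese IP 3 (adjusted p 0.063 to 0.141), and with a length correction, a filter of 1 CPM or scaling without PCGF6 (adjusted p 0.0526 to 0.0664). The change, -1.36 ± 0.36 (adjusted p = 0.0199), was lost without control input 2, any 1 manganese input, manganese IP 2 or manganese IP 3 (adjusted p 0.0553 to 0.0928), with total counts scaling (adjusted p = 0.0659) and with limma on log2(TPM + 1) (adjusted p = 0.119).

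SLC25A42, which carries coenzyme A, stood at 8.66, 9.61 and 10.3 CPM in the control inputs, 3.59, 5.19 and 6.79 CPM in the control IPs, 4.84, 3.84 and 4.83 CPM in the manganese inputs and 9.18, 7.52 and 5.92 CPM in the manganese IPs. The IPs were below the inputs in control cells and above them in manganese-treated cells. SLC25A42 had a ratio of 0.74 ± 0.33 (adjusted p = 0.105) in manganese-treated cells by edgeR, which did not pass. That ratio passed with a filter of 1 CPM (0.895, adjusted p = 0.0479) and without control input 1, control IP 3 and manganese IP 3 (0.889, adjusted p = 0.0288). Its input level fell by 1.08 ± 0.33 with manganese by edgeR (adjusted p = 0.0429), lost without any 1 input library, control IP 2 or manganese IP 2 (adjusted p 0.0533 to 0.161) and with no filter (adjusted p = 0.151). The change of its ratio was 1.62 ± 0.47 (adjusted p = 0.0305), lost without control input 2 or 3, any 1 manganese input, control IP 1 or 2, or manganese IP 1 or 2 (adjusted p 0.0519 to 0.0937) and with no filter (adjusted p = 0.0863). With limma on log2(TPM + 1) the change was 0.96 (adjusted p = 0.05). In control cells the ratio was -0.87 ± 0.33 (adjusted p = 0.0592), and it passed without control IP 3 (-1.12, adjusted p = 0.0214). It also passed with total counts scaling, DESeq2, limma on log2(TPM + 1) and a length correction (-1.16 to -0.70, adjusted p 0.0184 to 0.0275).

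SLC25A46, a member of the outer rather than the inner membrane that acts in the shape and division of mitochondria, had the lowest called ratio in manganese-treated cells. It stood at 24.1, 28.6 and 27.4 CPM in the control inputs and 20.0, 24.9 and 22.2 CPM in the manganese inputs. The control IPs held 6.97, 7.44 and 21.8 CPM and the manganese IPs 3.62, 1.2 and 1.99 CPM. The manganese IPs were the lowest 3 libraries, and control IP 3 stood close to the inputs. By edgeR the ratio was -1.15 ± 0.43 (adjusted p = 0.0589) in control and -3.29 ± 0.47 (adjusted p = 0.00019) in manganese-treated cells, and the IP level fell by 2.40 ± 0.46 with manganese (adjusted p = 0.000929). Without control IP 3 the control ratio was -1.89 (adjusted p = 0.000564) and the difference between the IPs -1.66 (adjusted p = 0.00111). The control ratio also passed with no filter, DESeq2 and limma on log2(TPM + 1) (-1.5 to -1.13, adjusted p 0.01 to 0.038). With limma the ratio in manganese-treated cells was -2.34 (adjusted p = 0.00187) and the difference between the IPs -1.37 (adjusted p = 0.0228). The change of the ratio was -2.14 ± 0.62 (adjusted p = 0.031), and without control IP 3 it was -1.40 (adjusted p = 0.0322). That call was lost without any 1 input library, manganese IP 2 or manganese IP 3 (adjusted p 0.0642 to 0.0929), and without both control IP 3 and control input 1 (-1.33, adjusted p = 0.0572). It was lost as well with total counts scaling (adjusted p = 0.0607) and with limma on log2(TPM + 1) (-0.84, adjusted p = 0.409).

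**Figure D5:**
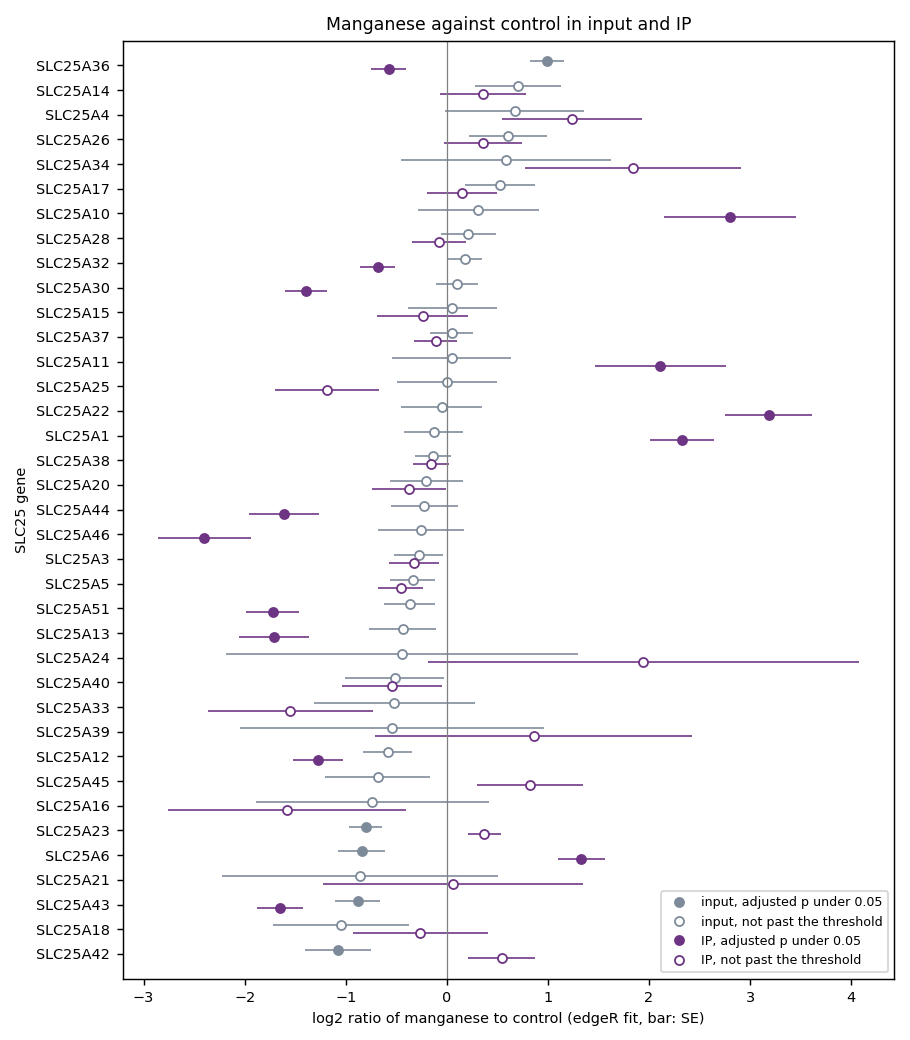
Points give the log2 difference between manganese and control for tested members with its SE from edgeR's fit, in the input (grey) and the IP (purple), filled where the adjusted p was under 0.05. SLC25A36 and SLC25A6 are filled on opposite sides of 0 in the 2 fractions.

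The 16 tested members called in no comparison include SLC25A3, SLC25A4, SLC25A37 and SLC25A39, given above, and SLC25A20, the carnitine-acylcarnitine carrier of fatty acid oxidation. SLC25A20 had ratios of 0.30 ± 0.36 (adjusted p = 0.589) and 0.13 ± 0.37 (adjusted p = 0.836) in control and manganese-treated cells by edgeR. SLC25A17, the family's peroxisomal carrier, had 0.10 ± 0.35 (adjusted p = 0.871) and -0.27 ± 0.35 (adjusted p = 0.607), and SLC25A26, the S-adenosylmethionine carrier, 0.08 ± 0.39 (adjusted p = 0.911) and -0.17 ± 0.38 (adjusted p = 0.784). SLC25A21, an oxodicarboxylate carrier, had the highest fitted ratios, 2.28 ± 1.35 (adjusted p = 0.232) and 3.20 ± 1.43 (adjusted p = 0.108), with IPs above inputs in both treatments, but its level was 0.272 ± 0.376 TPM in the control input and its SE was among the widest. For these genes the test does not show that input and IP were equal.

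The filter left out 9 members. SLC25A31, the ADP/ATP exchanger of the testis, had no count in any library. SLC25A29, a carrier of basic amino acids, had 22, 9 and 10 counts in control input 1 to 3 and none in the control IPs. Its level in the control IP was at least 10.3-fold lower than in the control input, taking 3 counts in the whole group as the limit that a count of 0 allows, which covers counting error only. SLC25A41 and SLC25A48 had at most 12 and 8 counts in a library. SLC25A2, SLC25A27, SLC25A35, SLC25A47 and SLC25A52 had at most 6 counts in a library and were at 0 in 10 or 11 of the 12.

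Few counts were assigned to genes named as pseudogenes of the family. The table held 34 genes named as SLC25 pseudogenes, 9 of them with counts, 568 in all, of which 563 belonged to pseudogenes of SLC25A5. Those 563 counts equal 0.763% of the 73783 counts of SLC25A5, and how reads were split between copies was not tested. Antisense genes held 263 counts beside SLC25A5 and 29 beside the 227 of SLC25A34. Relative length, taken as counts over TPM, had a Spearman rho of 0.01 with the control IP-to-input ratio over the 38 tested members, against 0.36 over all 14804 genes tested. In manganese-treated cells the rho was 0.21 over the members and 0.14 over all genes. These are descriptions across genes that share libraries, and genes are not independent replicates.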

How the data were processed

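RNA from U251-MG cells was sequenced as 12 libraries in 4 groups of 3, taken from the labels' treatment and antibody fields. Per the submitters' processing notes, the authors used kallisto with hg19, and no version is given in the sources used here. The authors deposited estimated counts per gene as whole numbers and the same genes as TPM, and a deposited summary gives fragment counts and the percent aligned per library, per the file headers. Depth was 16683984 to 28425552 estimated gene counts per library, of which the SLC25 genes held 15084 to 40914. No 2 libraries held identical values.

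Genes were kept by filterByExpr (minimum count 10, minimum total 15) and scaled by TMM factors, and edgeR 4.0.16 (R 4.3.3) fitted its quasi-likelihood model to all 12 libraries, 1 mean for each group. P-values were adjusted by Benjamini-Hochberg over 14804 genes, threshold 0.05. The procedure was tested on simulated counts before use. Every SLC25 gene could be named, and a member got its 12 values where it passed in any of 5 comparisons and was among the 8 largest changes of that comparison and direction, or was SLC25A3, SLC25A4, SLC25A5, SLC25A6, SLC25A28, SLC25A37 or SLC25A39, which gave 26 members. For 1 of these the values are not reported here and not drawn, and counts over the family include it. Members, groups by role and comparison lists were chosen with earlier results of these data known. Relative length is counts over TPM, scaled within a library. Alternatives were RLE and total counts scaling, scaling without PCGF6, no filter, a filter of 1 CPM, DESeq2 1.42.0, limma 3.58.1 on log2(TPM + 1), a length correction, fits of the compared libraries alone, the replicate number as a block, leaving out each library, and leaving out control IP 3 with control input 1. Leaving out manganese IP 3 as well was added after seeing the data. The authors' transcript tables, ratios and p-values were not used. Genome coordinates and sequences are not given, since the reference tables use a later build than hg19.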

Additional observations from a re-analysis of the deposited data

Results flagged for a closer look

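For 10 members the IP-to-input ratio differed between manganese-treated and control cells by the test of that difference, edgeR's quasi-likelihood test adjusted over all genes. Upward changes were 3.24 on the log2 scale for SLC25A22, 2.46 for SLC25A1, 2.17 for SLC25A6, 1.62 for SLC25A42 and 1.17 for SLC25A23. Downward changes were -2.14 for SLC25A46, -1.57 for SLC25A36, -1.5 for SLC25A30, -1.36 for SLC25A51 and -0.86 for SLC25A32. The changes of SLC25A1, SLC25A6, SLC25A22, SLC25A23, SLC25A30 and SLC25A36 passed the threshold in each alternative run, single libraries left out included, while those of SLC25A32, SLC25A42, SLC25A46 and SLC25A51 did not.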

How the results depend on the processing

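Of 55 called pairs of member and comparison, 34 kept direction and threshold under every alternative run for them, of 24 in all, 12 of which left out 1 library each. The change of the ratio had no fit of the compared libraries alone. None of the 55 reversed. The calls lost numbered 9 with limma on log2(TPM + 1), 7 with total counts, 7 with no filter, 6 with the length correction, 5 of 45 with the compared libraries alone, 2 with a filter of 1 CPM, 2 without PCGF6, and 0 with RLE factors or DESeq2. Deviations from group means were weakly correlated between same-numbered libraries (r -0.121 to 0.066). For input and IP of 1 treatment, r was -0.001 to 0.066 with the same number and -0.061 to 0.035 with different numbers. Values this weak, from 3 libraries per group, cannot show whether libraries of 1 number came from 1 lysate. The replicate block kept 47 of the 55 calls, with 3 downward changes of the ratio in place of 5. The block ended calls of SLC25A11, SLC25A12, SLC25A14, SLC25A23, SLC25A32, SLC25A42 and SLC25A46 (adjusted p 0.0532 to 0.0971). Of 75 pairs of described members that were not called, 33 turned sign in some setting, and 1 did so past the threshold, SLC25A37 between control IP and input, at -0.63 with limma against 0.02.

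Members lower in the control IP, 6 in all, became 11 with total counts, 10 with DESeq2, 13 with limma, 10 without control IP 3 and control input 1, and 11 without manganese IP 3 as well. Those lower in the manganese IP, 11, became 7 with the length correction. In the manganese input the 1 higher member became 0 with total counts or limma and 2 with the compared libraries alone or without the 3 libraries, and the 4 lower became 8 and 9 with total counts and limma. Upward changes of the ratio, 5, became 8 under both exclusions of several libraries. Downward changes, 5, became 2 with total counts or limma and 8 without the 3 libraries. Calls over all genes also moved between settings, and their shares are not set beside each of these counts. The counts here and the ranges that follow are thus not read as traits of the family.

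Leaving out 1 library gave 3 to 6 higher and 5 to 10 lower members in the control IP, 3 to 5 and 7 to 11 in the manganese IP, 1 to 2 and 2 to 4 for manganese in the input, 4 to 7 and 8 to 11 in the IP, and 4 to 8 and 2 to 7 for the change. Over all genes, 537 lower calls in the manganese input became 2621 with total counts, 2448 with limma, 1866 with the compared libraries alone, 1129 with DESeq2, 948 with a filter of 1 CPM and 806 with the length correction, and the share of higher calls went from 75.8% to 30.0% with total counts. For the change of the ratio, 1503 downward calls became 670 with limma and 822 with the length correction, and 1028 upward calls became 1574 with DESeq2. For the control IP, 2543 higher calls became 1679 with total counts, 1560 with limma and 1636 with the compared libraries alone, and 2096 lower calls became 3419 with limma. Causes were not tested.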

Other observations

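The machinery that brings carriers into the inner membrane was compared beside them, from a list of 16 genes of which 15 were tested. In the control IP 2 were higher and 3 lower than in the input, and in the manganese IP 1 was higher and 3 lower, by edgeR's quasi-likelihood test. Of all genes, 17.2% were higher and 14.2% lower in the control IP, and 14.8% higher and 17.6% lower in the manganese IP. TOMM22, a receptor of the outer membrane gate, was lower in both, at -1.58 ± 0.29 (adjusted p = 0.000975) and -1.33 ± 0.29 (adjusted p = 0.00314). TOMM40, the channel of that gate, had 1.00, 3.61 and 5.81 CPM in the control inputs, 0, 0.130 and 0 CPM in the control IPs, 13.5, 7.64 and 1.88 CPM in the manganese inputs and 9.10, 11.9 and 3.80 CPM in the manganese IPs. Its control IPs were at or near 0, below all other libraries, and the test called the change of its ratio (adjusted p = 0.00984). TOMM70, the receptor that binds carriers, fell by 1.07 ± 0.20 in the IP with manganese (edgeR adjusted p = 0.00092), as did TIMM8A, a chaperone of the space between the membranes, by 1.74 ± 0.22 (adjusted p = 4.4e-05). In the input the differences were -0.32 ± 0.20 (adjusted p = 0.387) for TOMM70 and -0.89 ± 0.22 (adjusted p = 0.014) for TIMM8A. Neither change of ratio passed (-0.75 ± 0.29, adjusted p = 0.0919, and -0.85 ± 0.31, adjusted p = 0.0777). The ratio of TOMM20 changed by -1.17 ± 0.32 (adjusted p = 0.0243).

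Of 22 other mitochondrial membrane transporters, 20 were tested, and 8 were lower and 2 higher in the control IP than in the input, with 9 lower and 1 higher in the manganese IP, beside 14.2% lower and 17.2% higher of all genes in control cells and 17.6% and 14.8% in manganese-treated cells. The porins of the outer membrane were lower in the IP in both treatments. VDAC1 stood at 185, 159.8 and 153 CPM in the control inputs and 93.4, 87.3 and 75.8 CPM in the control IPs, with 267, 278 and 286 CPM and 95.3, 77.8 and 71.6 CPM in the manganese inputs and IPs. Its ratios were -0.96 ± 0.16 (adjusted p = 0.000421) and -1.76 ± 0.16 (adjusted p = 9.01e-06) by edgeR, and the change was -0.81 ± 0.22 (adjusted p = 0.024). Its input level rose by 0.74 ± 0.16 with manganese (adjusted p = 0.00489). VDAC2 gave -1.29 and -1.16, and VDAC3 gave -1.56 and -1.59. MTCH1 and MTCH2, relatives of the carriers in the outer membrane, were also lower in both, with -1.95 and -0.96 for MTCH1 and -1.66 and -1.07 for MTCH2. The change of the ratio was 1.00 ± 0.22 (edgeR adjusted p = 0.00978) for MTCH1 and 0.60 ± 0.33 (adjusted p = 0.24) for MTCH2. UCP2, an uncoupling protein of the SLC25 fold, was lower in the control IP alone, at -2.69 ± 0.49 (adjusted p = 0.00098), and its ratio changed by 2.68 ± 0.66 (adjusted p = 0.0154) with manganese.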
